A study of Mus musculus with 4 samples.

Results

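The genes described here encode the proteins of the mitochondrial ribosome in mouse thymocytes. They were chosen by symbol alone, as the symbols of the deposited expression tables that begin with Mrpl or Mrps followed by a number, and no measured level entered the choice. The tables held 76 such symbols of 22730 gene symbols, 47 named Mrpl and 29 named Mrps, on 85 transcript rows. For the 7 symbols with more than 1 row, the row with the most reads over the 4 libraries was taken. The junction tables listed 1102 exon-exon junctions under these symbols, 334 marked as known and 768 as putative, and 331 and 76 of these had a read.

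RNA came from total thymocytes of 2 wild-type mice and 2 mice labelled hnRNP L KO, with 1 library per mouse, and the libraries were sequenced after depletion of ribosomal RNA. hnRNP L binds RNA and acts in alternative splicing. The labels give all 4 mice one mixed background that lists C57BL/6, the LckCre transgene (Cre driven by the Lck promoter in T lineage cells), a tdTomato and EGFP reporter at ROSA26 and CD45.1, and they give no age. Which mice carried Cre is not given in the sources used here. The comparison asks whether RNA levels or splicing of these genes differed between KO and wild-type thymocytes. In bulk RNA, fewer cells of a type and less RNA per cell cannot be told apart.

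The mitochondrial ribosome translates the few proteins that mitochondrial DNA encodes, which are subunits of the respiratory chain and ATP synthase. Its RNAs are made inside the organelle, while all of its proteins are encoded in the nucleus, translated in the cytosol and imported. Many of these proteins descend from those of the bacterial ribosome, and others exist only in mitochondria. By subunit, 49 of the genes belong to the large subunit (the Mrpl genes with Mrps30 and Mrps18a) and 26 to the small subunit. Mrps36 was kept apart, since its product is now held to be part of the 2-oxoglutarate dehydrogenase complex.

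Hnrnpl itself had 854 and 813 CPM (reads of a gene per 1000000 reads, with library sizes scaled by the TMM method) in the wild types, 467 in KO replicate 1 and 208 in KO replicate 2, so that the KOs stood at 56% and 25% of the wild-type mean. In edgeR's quasi-likelihood test this difference had an adjusted p of 0.486, and 0.00403 without KO replicate 1. The 2 KOs also differed in other ways. Reads of Ddx3y, a gene of the Y chromosome, numbered 4116 in KO replicate 1 and 1 to 17 elsewhere. The 5 erythroid markers found of 6 summed to 287 CPM in KO replicate 1, against 60.1 to 86.9 CPM elsewhere. The double-positive thymocyte markers, 7 of 7 found and none at 0, summed to 9845 CPM in KO replicate 2 and to between 12436 and 13140 CPM in the other libraries. Markers of thymic stroma summed to 74.3 CPM in KO replicate 2 and to between 31.7 and 41.7 CPM in the others. Markers of mature T cells summed to between 425 and 598 CPM, those of B cells to between 31.5 and 38.8 CPM and those of myeloid cells to between 134 and 152 CPM. No marker of any list was at 0 in a library. Small RNA genes took 8.22% of reads in wild-type replicate 1 and 1.13% to 2.13% in the other libraries. The part of these differences in the results below was not tested, beyond the values given without each library.

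3 sets of sequence carry the results on these genes and are shown first. The first set is the junctions of Mrpl15, on which the splicing results turn. Mrpl15 lies on the minus strand at chr1:4763279-4775807 (mm9, as in the files). Each line gives the last 24 bases of one exon in lower case and the first 24 bases of the next in capitals, 5′ to 3′, from the GENCODE M21 transcript Mrpl15-206, whose exons were matched to the mm9 junctions by intron length.
exon 1 to exon 2: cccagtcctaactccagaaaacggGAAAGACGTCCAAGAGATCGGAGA
exon 1 to exon 5: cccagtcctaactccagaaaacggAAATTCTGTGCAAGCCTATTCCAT
exon 4 to exon 5: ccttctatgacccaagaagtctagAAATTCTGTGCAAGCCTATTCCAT
The joins of exon 1 to 2 (chr1:4774186-4775654) and of exon 4 to 5 (chr1:4766882-4767606) are known junctions, and the join of exon 1 to 5 (chr1:4766882-4775654) is listed as putative. All coordinates of junctions are the last base of one exon and the first base of the other in mm9. Exons 1 and 4 matched at 7 of the 24 bases before the junction, and only the last base was the same without a break.

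The second set is the space between the start sites of Mrpl46 and Mrps11, a large and a small subunit gene that point away from each other. In the files' mm9 coordinates the starts lie 42 bp apart. In the RefSeq promoter table (GRCm38.p6) 41 bases separate them, at chr7:78783090-78783130, shown on the strand of Mrps11 with a GC box in capitals.
between Mrpl46 and Mrps11: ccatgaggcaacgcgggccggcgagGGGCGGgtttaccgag

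The third set is the promoter of Mrpl17. Of the 67 genes with a promoter sequence, it is the 1 with matches to more than 1 of 3 motifs (of ETS factors, NRF1 and YY1) upstream of its start. In the whole window searched, which runs to 50 bases past the start, 5 genes had matches to 2 of these motifs (Mrpl17, Mrps18a, Mrps21, Mrps26 and Mrps27). It is the stretch at chr7:105811117-105811334 (GRCm38.p6, minus strand), which ends 29 bases before the start site, with the ETS and NRF1 matches in capitals.
Mrpl17 promoter: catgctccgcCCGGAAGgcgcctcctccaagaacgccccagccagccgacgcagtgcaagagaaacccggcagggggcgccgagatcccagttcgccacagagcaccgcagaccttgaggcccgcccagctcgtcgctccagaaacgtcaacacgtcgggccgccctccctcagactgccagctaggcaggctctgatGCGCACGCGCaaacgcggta

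The mitochondrial ribosomal protein genes took 0.217% and 0.220% of assigned reads in wild type, against 0.216% and 0.244% in KO replicates 1 and 2. The exact 95% intervals, which cover counting error only, ran in that order from 0.216% to 0.218%, from 0.218% to 0.221%, from 0.215% to 0.218% and from 0.242% to 0.245%. By share of unscaled reads, KO replicate 2 therefore lay above the other 3 libraries, which lay within 0.01 percentage points of each other. The assigned reads include small RNA genes, which took 8.22% in wild-type replicate 1 and 1.13% to 2.13% elsewhere. The closeness of the wild types therefore depends on counting these genes, and shares without them were not computed. The TMM factors, not used here, were 0.932 and 0.990 in wild type and 1.003 and 1.080 in KO. On TMM-scaled log2 levels, the median deviation of the tested genes from each gene's mean was 0.04 and -0.01 in wild type. It was -0.06 and 0.01 in KO replicates 1 and 2, so on that scale KO replicate 2 lay between the wild types. The counts behind these shares were 90667 and 113154 reads in wild type and 59570 and 69876 in KO, of 27548711 to 51544716 reads assigned to genes per library.

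Levels between genes were compared as CPM per kilobase of transcript. In the wild types 74 of the 76 genes passed edgeR's filter on low counts, and their median level was 26.3 CPM per kilobase, against 9.95 for all 13733 genes tested. Of these genes, 64 lay above that median of all tested genes. The highest wild-type levels were those of Mrpl33 (78.4 ± 2.6, SD, n = 2), Mrpl20 (76.8 ± 9.6), Mrpl24 (72.6 ± 6.3), Mrps23 (65.6 ± 14.1) and Mrpl9 (61.5 ± 6.9), all in CPM per kilobase. Mrpl33, Mrpl20, Mrpl24 and Mrpl9 are large subunit proteins with bacterial counterparts, and Mrps23 is a mitochondria-specific protein of the small subunit. Neighbours in this order overlapped between the wild-type libraries, so their order is not resolved. Among the tested genes the lowest levels were those of Mrps33 (2.95 ± 0.05), Mrps18b (4.73 ± 1.21) and Mrpl17 (5.23 ± 0.23), again in CPM per kilobase. The ranges of Mrps18b and Mrpl17 overlapped, while Mrps33 lay below both. The low place of Mrpl17 comes with its transcript length of 6712 nt. Before division by length it had 34 and 36.2 CPM, against 3.06 and 3.14 for Mrps33 and 5.88 and 4.08 for Mrps18b. The ratio of the highest to the lowest tested level was 26.6. Mrps33 and Mrps18b had 0.731 and 0.483 junction reads per transcript read, against a median of 0.144 and 0.028 for Mrpl17. By junction reads they ranked 53 and 44 of the 76. Of their 50-nt windows, 25.7% and 35.7% occurred in an annotated pseudogene, against 0% for Mrpl17. Whether reads lost to the mapping quality limit described below lowered these levels, and so raised the ratio, was not tested. In the files' coordinates 8 of the 76 genes overlap another symbol, among them Mrpl19 (with AW146020) and Mrpl24 (with Rrnad1). No source used here says that strand was counted, so reads of such pairs cannot be told apart.

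**Figure D1:**
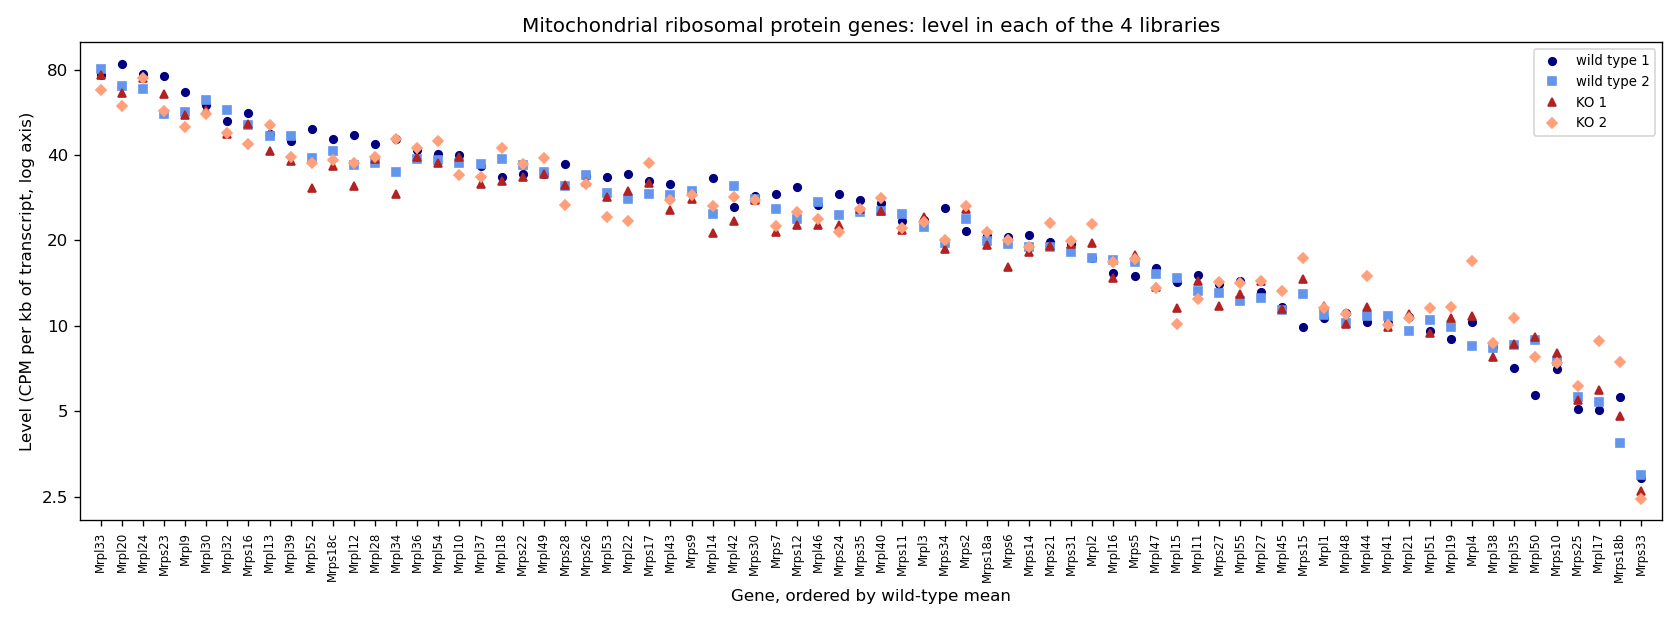
Level of each of the 74 tested genes in the 4 libraries, in CPM per kilobase of transcript on a log axis, ordered by the wild-type mean. Levels ran from 78.4 for Mrpl33 to 2.95 for Mrps33, and for most genes the symbols of the 4 libraries lie close together.

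Between KO and wild type, no mitochondrial ribosomal protein gene passed an adjusted p of 0.05 in edgeR's quasi-likelihood test with Benjamini-Hochberg adjustment over the 13733 genes (0 of 74), where 0.00728% of all tested genes did so. Their smallest adjusted p was 0.415. With DESeq2 the count was also 0 of 74, where 0.931% of the genes with an adjusted p passed. At an unadjusted p under 0.05, 3 genes were higher in KO (Mrpl17, Mrpl4 and Mrps15) and 2 lower (Mrpl15 and Mrps7), or 4.05% and 2.70% of the 74, against 6.29% higher and 3.61% lower among all tested genes. With 3 and 2 genes, these shares cannot be told apart from those of all tested genes. With 2 mice per group, an exact permutation test of 1 gene could not go below 0.333.

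The fold changes of the group were small. The median log2 fold change, KO over wild type, was -0.04 with quartiles of -0.19 and 0.08, and the median of all tested genes was 0.01. Fold changes ran from -0.42 to 0.57, and 73 of the 74 genes lay within 0.5 of 0 on the log2 scale, whereas 14.2% of all tested genes lay at or past 0.5. All tested genes had a lower median level, as given above, and a median SE of 0.16, against 0.15 in the group. Small changes were also seen in related lists described below. The share within 0.5 was 100% for ribosome assembly, 95% for the synthetases, 94.0% for the respiratory chain and 91.7% for the cytosolic ribosome. The sign of the median rested on KO replicate 1 and on the scaling: it was 0.01 without KO replicate 1, -0.07 without KO replicate 2 and 0.01 with upper-quartile scaling, under which the median of all tested genes was 0.06. The median absolute difference between the groups was 0.14 on the log2 scale. The median absolute difference was 0.13 between the wild types and 0.16 between the KOs. The first is a difference between means of 2 mice and the others are between single mice, so these values are not on the same footing.

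**Figure D2:**
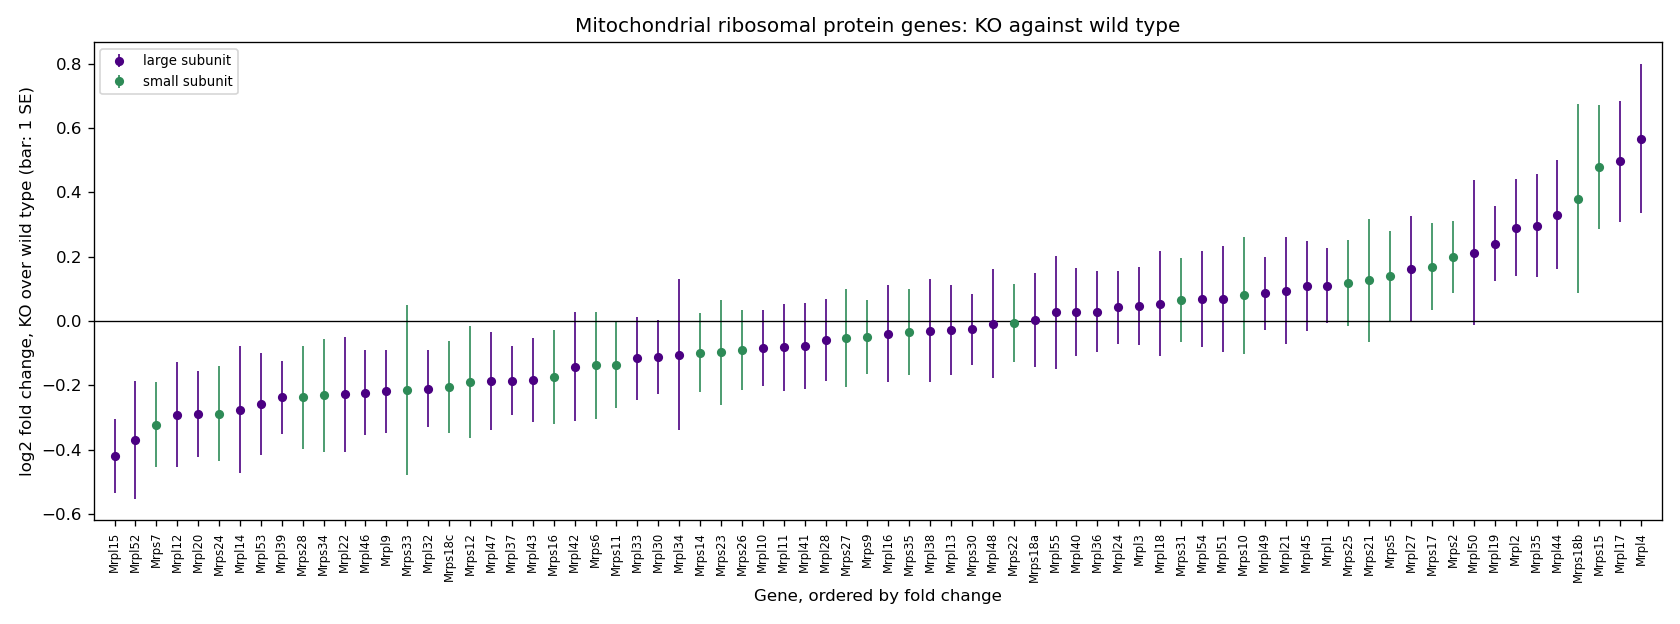
Log2 fold change of each tested gene, KO over wild type, with bars of 1 SE and the subunit by colour, ordered by fold change. The values run from -0.42 for Mrpl15 to 0.57 for Mrpl4, and 65 of the 74 lie within 2 SE of 0.

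By subunit the counts and medians lay close together. Of the 48 tested large subunit genes, 21 had a positive and 27 a negative fold change, with a median of -0.03. The 26 small subunit genes had 9 positive and 17 negative values and a median of -0.07. Genes with a bacterial counterpart (47 tested) had a median of -0.05, and mitochondria-specific genes (27 tested) one of -0.03. With upper-quartile scaling these medians were 0.03, -0.02, 0.003 and 0.02, so the sign held for the small subunit only, and no test compared the sets. Both KOs lay above both wild types in CPM for 12 genes, or 16.2%, where 23.3% of all tested genes did so. Both KOs lay below both wild types for 21 genes, or 28.4%, where 21.4% of all tested genes did so.

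Mrpl15, a large subunit protein with a bacterial counterpart, had the smallest p of the group. It had 60.1 and 61.8 CPM in wild type, against 48.7 and 42.5 CPM in KO, with no overlap of the groups. Its log2 fold change was -0.42 ± 0.12 (SE), with an unadjusted p of 0.00741 and an adjusted p of 0.415 in edgeR, and 0.200 in DESeq2. Mrps7, a small subunit protein that binds the ribosomal RNA, had 38.5 and 34.2 CPM in wild type, against 28.4 and 29.8 CPM in KO (log2 fold change -0.32). Mrpl39, a mitochondria-specific protein, had 46.0 and 47.8 CPM against 39.1 and 40.5 CPM (-0.24). For Mrpl52, also mitochondria-specific, the values were 20.3 and 16 CPM against 12.6 and 15.4 CPM (-0.37). Mrpl20 (-0.29) and Mrps24 (-0.29), both with bacterial counterparts, completed the 6 lower genes of smallest p. In all 6, both KO libraries lay below both wild types, as they did in 21.4% of all tested genes, and none passed the test. Since the 6 were chosen by smallest p, this separation follows largely from the choice.

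On the other side, Mrpl17, a large subunit protein with a bacterial counterpart, had 34 and 36.2 CPM in the wild types, 39.7 CPM in KO replicate 1 and 59.3 CPM in KO replicate 2. Its log2 fold change was 0.50 ± 0.19 (SE), with an adjusted p of 0.486 in edgeR. Without KO replicate 1 the value was 0.75 and the adjusted p 0.0323, which made Mrpl17 the 1 gene of the group called in that fit, where 3.0% of all genes were called. The adjusted p of Mrpl17 ranged from 0.0323 to 0.998 over the alternatives, and without KO replicate 2 its log2 fold change was 0.18. Mrpl4, which in bacteria lines the exit tunnel of the ribosome, had 13.3 and 10.9 CPM in wild type, against 13.9 and 21.8 CPM in KO. Its log2 fold change was 0.57 with all libraries, 0.85 without KO replicate 1 and 0.20 without KO replicate 2. For both genes the difference was larger in KO replicate 2 than in KO replicate 1.

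Mrps15, a small subunit protein that binds the ribosomal RNA, had 9.30 and 12.2 CPM in wild type, against 13.7 and 16.3 CPM in KO (log2 fold change 0.48). Mrpl44, which carries a fold of the ribonuclease III family, had 14.6 and 15.4 CPM against 16.5 and 21.3 CPM (0.33). Mrpl2, which in bacteria lies near the peptidyl transferase centre, had 17.5 and 17.6 CPM against 19.7 and 23.2 CPM (0.29). Mrpl19 had 44.9 and 49.4 CPM against 53.2 and 58.3 CPM (0.24). The KO values lay above the wild types in all of these, with KO replicate 2 the higher of the KOs each time, and none passed the test. These genes too were chosen by smallest p, so the separation follows largely from the choice. Among all tested genes, 23.3% had both KOs above both wild types.

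The KOs also differed from each other. KO replicate 2 was above KO replicate 1 in 50 of the 74 genes, with a median log2 difference of 0.07, against -0.01 for all tested genes. The widest gaps were in Mrpl4 (0.65), Mrpl34 (0.65), Mrps18b (0.63) and Mrpl17 (0.58). Mrpl34, a large subunit protein with a bacterial counterpart, had 29.4 and 22.6 CPM in the wild types, 18.8 CPM in KO replicate 1 and 29.4 CPM in KO replicate 2. KO replicate 1 thus lay below both wild types, and KO replicate 2 beside the higher of them. Mrps18b had 5.88 and 4.08 CPM in wild type, against 5.07 and 7.85 CPM in KO. In the other direction the gaps were smaller, at -0.35 for Mrpl22, -0.24 for Mrpl53, -0.23 for Mrps16 and -0.23 for Mrpl50.

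Fold change went with transcript length. Across the 74 genes, which are not independent replicates and share libraries, log2 fold change and log2 length correlated at a Pearson r of 0.37 and a Spearman rho of 0.40, against 0.29 and 0.15 across all 13733 genes. The 11 genes with transcripts of 2000 nt or more had a median log2 fold change of 0.12, with 8 of them positive. The 63 shorter genes had a median of -0.06, with 22 positive. These lengths are the deposited ones, and the GENCODE M21 transcripts matched by RefSeq ID differ widely for some genes. Mrpl47 has 872 nt here and 3364 nt in GENCODE, Mrps26 962 and 4278 nt, and Mrps35 1067 and 4162 nt. Mrpl41 has 2423 and 776 nt. The split and the correlations therefore depend on the annotation, and they were not computed with GENCODE lengths. With the log2 wild-type level per kilobase, log2 fold change correlated more strongly across the 74 genes, at a Pearson r of -0.54 and a Spearman rho of -0.55. That level is divided by length and shares wild-type reads with the fold change, so the 2 relations are not separate. The transcripts of the group are short, with a median of 1052 nt against 2801 nt for all tested genes. With a trend on length removed over all tested genes, the median of the group was -0.01 and that of all tested genes was -0.01. Mrpl15, at 4203 nt, lay away from this relation, and its fold change was negative with the trend removed too.

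**Figure D3:**
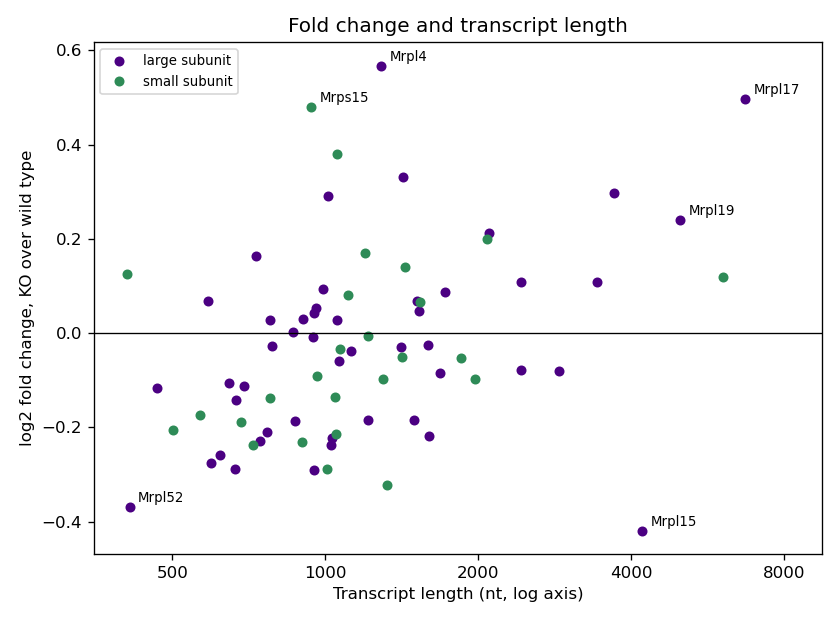
Log2 fold change, KO over wild type, against transcript length on a log axis for the 74 tested genes, coloured by subunit. Most of the shortest transcripts lie below 0, whereas Mrpl17 and Mrpl19 lie above it and Mrpl15, at 4203 nt, has the lowest value.

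The junction of smallest p among these genes belonged to Mrpl15. Reads that joined exon 1 directly to exon 5 numbered 70 and 41 in wild type, against 50 and 88 in the KOs. Reads on the known join of exon 1 to exon 2 numbered 136 and 147 in wild type, against 45 and 59 in the KOs. Of all junction reads that left exon 1, the join to exon 5 took 33.7% (95% exact interval 27.3% to 40.5%) and 21.4% (15.8% to 27.8%) in the wild types. It took 52.6% (42.1% to 63.0%) and 59.9% (51.5% to 67.9%) in the KOs. The means were 27.5% ± 8.7 and 56.2% ± 5.1 (SD, n = 2), and the groups did not overlap. Since the junction was chosen by smallest p, this separation follows largely from the choice. The share of all junctions with such a separation is not given here. The exact intervals cover counting error only.

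In edgeR's test of junction usage, this junction had the smallest p of the group, with a log2 usage in KO relative to the gene's other junctions of 1.18 and an unadjusted p of 0.00200. Its adjusted p was 1.00 over the 95139 junctions tested, and 0.840 to 1.00 over the alternatives. The log2 usage was between 0.78 and 1.77 with each library left out in turn. No junction of the group passed an adjusted p of 0.05 (0 of 320 junctions in 70 genes), where 0.0042% of all junctions did so. At an unadjusted p under 0.05 there were 5, or 1.56%, against 2.55% of all junctions. With 5 junctions, the 2 shares were not told apart.

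The exons that this join leaves out, 2, 3 and 4 of Mrpl15-206, have 155, 166 and 124 nt, together 445 nt, which is not a multiple of 3. Exon 1 ends after 35 whole codons. Read from the annotated start codon, the full transcript has 295 codons before its stop, and the transcript that joins exon 1 to 5 would have 88 before the first stop in frame. The known join of exon 4 to 5 had 23 and 39 reads in wild type, against 15 and 11 in KO. In every library the putative join into exon 5 had more reads than the known one. It took 75.3% and 51.2% of the reads into exon 5 in wild type, against 76.9% and 88.9% in the KOs. On that measure wild-type replicate 1 was close to KO replicate 1, so the groups were less clearly apart than at exon 1.

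**Figure D4:**
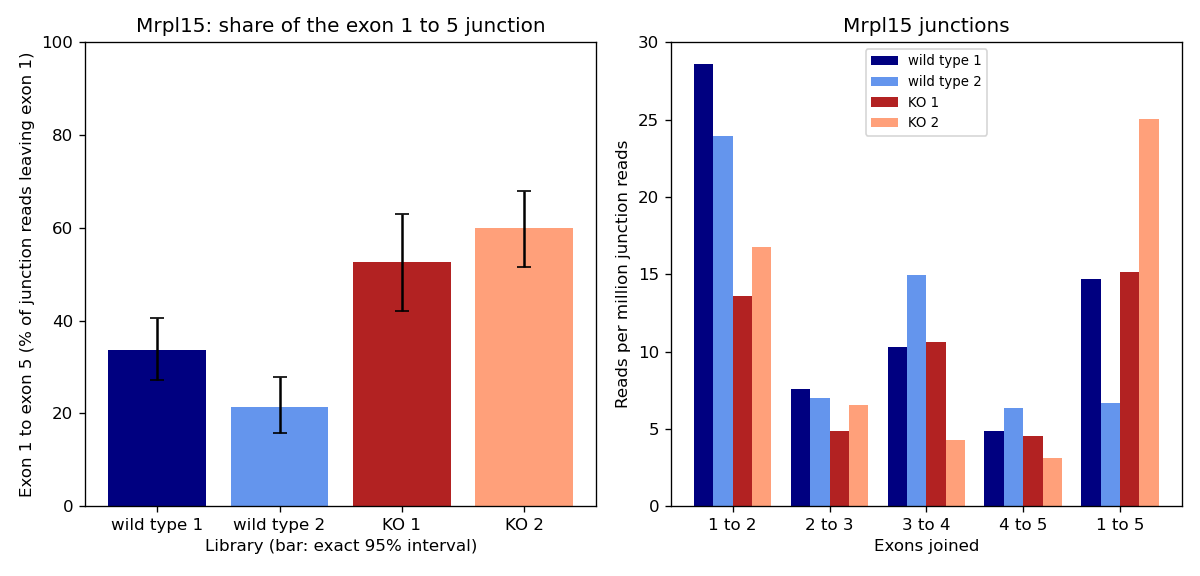
Left: share of the exon 1 to exon 5 join among Mrpl15 junction reads that leave exon 1, per library, with exact 95% intervals; the wild types are at 33.7% and 21.4% and the KOs at 52.6% and 59.9%. Right: CPM of junction reads on 5 joins of Mrpl15 in the 4 libraries, where the join of exon 1 to 2 is higher in both wild types.

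The other junctions of smallest p were known ones. The join of exon 4 to 5 of Mrpl12, which encodes the stalk protein of the large subunit, had 20 reads in wild-type replicate 1, 92 in wild-type replicate 2 and 52 and 55 in the KOs. It passed without wild-type replicate 2 (log2 usage 2.78, adjusted p 0.0313, with 0.0137% of all junctions called in that fit), and was 0.39 without wild-type replicate 1, so it rested on the low value of wild-type replicate 1. The join of exon 4 to 5 of Mrps10 had 21 and 19 reads in wild type, against 27 and 48 in the KOs (log2 usage 1.10). For exon 1 to 2 of Mrps17 the reads were 1 and 2 in wild type, against 7 and 4 in the KOs, too few to compare. The join of exon 1 to 2 of Mrps36 had 18 and 35 reads in wild type, against 4 and 8 in the KOs (log2 usage -1.37).

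Putative junctions, which the tables list apart from the known ones, were rare in the group. They took 1.03% and 0.85% of its junction reads in wild type, against 1.16% and 1.26% in the KOs, where the shares over all genes were between 1.15% and 1.18%. Of the 76 such junctions with reads, 35 had 1 read, and the 2 with the most reads held 64.6% of the 554 reads. After Mrpl15, with 249 reads, came the join of exon 1 to 3 of Mrpl30, with 38 and 39 reads in wild type, against 20 and 12 in the KOs. It leaves out an exon of 81 nt that lies before the coding sequence in Mrpl30-201. Its share of the reads leaving exon 1 was 47.5% and 53.4% in wild type, against 69.0% and 29.3% in the KOs, so the KOs lay on either side of the wild types. Joins of exon 1 to 3 of Mrpl33 (22 reads), exon 2 to 4 of Mrps10 (10 reads) and exon 4 to 6 of Mrps18b (9 reads) followed.

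In the test of exon inclusion, which needs reads on both joins of an exon and on the join that skips it, 11 exons of 9 genes could be tested. No exon passed an adjusted p of 0.05 (0 of 11), as was the case for 0.0% of the 3596 exons tested, and 0 of 11 had an unadjusted p under 0.05, where 5.51% of all exons did. The smallest p was that of exon 4 of Mrpl15 at 0.0982 (adjusted p 0.742, edgeR). For this exon, inclusion was scored as the mean reads on the joins of exon 4 to 5 and of exon 1 to 4. The join of exon 1 to 5 counted as skipping. That of exon 1 to 4 had at most 1 read in a library. The score was 14.6% and 32.8% in wild type, against 13% and 5.88% in the KOs, with the wild-type and KO values nearly meeting. Joins into exon 4 from exons other than exon 1 were not counted. The score is therefore not the share of Mrpl15 RNA that holds exon 4. In 10 of the 11 exons the mean inclusion differed by less than 10 percentage points. Inclusion of exon 5 of Mrpl42 was 94.9% and 100% in wild type, against 100% and 99.1% in the KOs. That of the tested exons of Mrpl13 and Mrps18c was between 96.1% and 100% in every library, and exon 2 of Mrpl30 was included at 55.3% and 54.7% in wild type, against 47.4% and 75.3% in KO.

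Mrps10 uses a pair of acceptors 3 bases apart at its exon 3, both listed as known. Each line gives 12 bases of exon 2 and 18 bases of exon 3 of a GENCODE M21 transcript, with the first 3 bases of exon 3 in capitals. In Mrps10-202 the capitals are the added bases, and in Mrps10-201 they are bases that both forms share.
Mrps10-202 (chr17:47509440-47509522): tggcctcgcgctCAGtgccagtatgaagtg
Mrps10-201 (chr17:47509440-47509525): tggcctcgcgctTGCcagtatgaagtgggt
The acceptor that includes the extra bases took 15 of 20 and 17 of 25 reads in wild type, and 9 of 15 and 19 of 24 in the KOs. As shares these were 75%, 68%, 60.0% and 79.2%, and the groups overlapped.

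Both genes that failed the filter on low counts, Mrpl23 and Mrps36, had reads on their junctions. Mrpl23, a large subunit protein that lies near the end of the exit tunnel in bacteria (chr7:149719022-149726647, plus strand, mm9), had 5, 2, 0 and 3 reads in the transcript tables in wild-type replicates 1 and 2 and KO replicates 1 and 2. In the junction tables it had 145, 98, 70 and 79 reads. For Mrps36 (chr13:101505895-101514614, minus strand, mm9) the transcript reads were 4, 7, 1 and 6 and the junction reads 78, 141, 65 and 66. The number of junction reads per transcript read was 39.2 for Mrpl23 and 19.4 for Mrps36, whereas in the other genes it reached at most 0.731, with a median of 0.144 over all 76. By junction reads the genes ranked 45 and 50 of the 76.

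Scaled to the junction total of each library, Mrpl23 had 23.2 ± 10.3 CPM of junction reads in wild type and 21.8 ± 0.9 in KO, and Mrps36 had 19.7 ± 4.6 and 19.2 ± 0.6 (SD, n = 2). Neither differed by more than the spread between the wild types. Per the file headers, reads below a mapping quality of 10 were left out of the transcript tables, and reads that match several places equally well usually get a low mapping quality. Of the 50-nt windows of the Mrpl23 transcript, 76.8% occurred with at most 2 mismatches in an annotated pseudogene (Mrpl23-ps1), and for Mrps36 the share was 40.04%. Such windows were found in 21 of the 76 genes. Mrpl22, at 66.7%, and Mrpl27, at 63.6%, nevertheless had 3202 and 1456 transcript reads, and the part of the pseudogenes in the low counts was not tested. The transcript values of Mrpl23 and Mrps36 are therefore not used as levels.

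**Figure D5:**
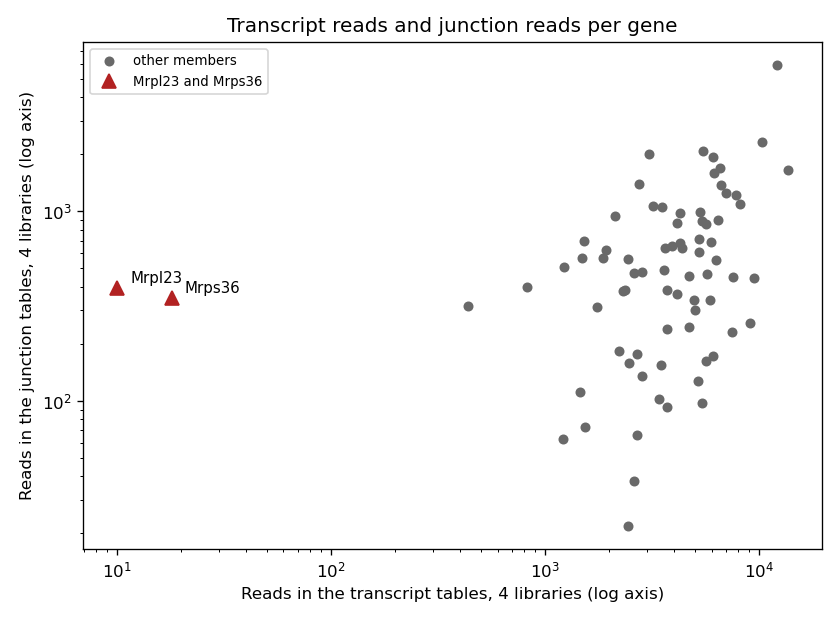
Reads in the junction tables against reads in the transcript tables for each of the 76 genes, summed over the 4 libraries, on log axes. Mrpl23 and Mrps36 have 392 and 350 junction reads with 10 and 18 transcript reads, and lie apart from the other 74.

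The positions of the genes had a feature that their symbols do not set. In the files' coordinates, 24 of the 76 genes, or 31.6%, had the start of another gene on the opposite strand, pointing away, within 1000 bp, against 8.31% of all 22730 symbols. Those symbols include genes with too few reads to be tested, and the share among tested genes was not computed. The partners included Sars2, the mitochondrial seryl-tRNA synthetase, beside Mrps12, Ndufb5, a subunit of respiratory complex I, beside Mrpl47, and Peo1, the mitochondrial DNA helicase, beside Mrpl43. In the Mrpl46 and Mrps11 pair, both of the group, Mrpl46 had 27.5 and 28.1 CPM in wild type, against 23.2 and 24.4 CPM in KO. Mrps11 had 24.3 and 25.8 CPM against 22.6 and 23.0 CPM. Both genes were lower in both KOs, at log2 fold changes of -0.22 and -0.14, and neither passed the test. Over the 23 pairs with both genes tested, 10 had fold changes of the same sign, with a Pearson r of -0.17 and a Spearman rho of -0.18 across pairs, which share libraries.

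Promoter sequences (250 bases before to 50 after the start, RefSeq, GRCm38.p6) were found for 67 of the 76 genes. 5 motifs were searched on both strands: CCGGAAG for ETS factors such as GABPA, the palindromic NRF1 motif, the YY1 motif, GGGCGG for the GC box and TATAAA for the TATA box. The ETS motif was in 24 of the 67 promoters, or 35.8%, against 19.3% of the 10631 tested genes with a promoter and 9.93% of all 27025 genes in the table. The NRF1 motif was in 17.9%, against 11% of tested genes, and the YY1 motif in 7.46%, against 1.76%. The GC box was in 49.3%, below the 66.8% of tested genes, and the TATA box in 7.46%, against 9.29%. At least 1 of the ETS, NRF1 and YY1 motifs was in 53.7% of these promoters, 48.6% of those of nuclear-encoded respiratory chain genes and 53.7% of those of cytosolic ribosomal protein genes. The shares of ETS and NRF1 motifs were 25% and 23.6% in the respiratory chain genes and 46.3% and 9.26% in the cytosolic ribosomal protein genes. Those of the YY1 motif and the GC box were 6.94% and 43.1% in the respiratory chain genes, close to the shares in the group. In the cytosolic ribosomal protein genes they were 0% and 64.8%. A match describes the letters of the window and shows no binding.

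Other genes of mitochondrial translation were described from lists beside the group. No gene of these lists passed an adjusted p of 0.05 in the main edgeR test, with all libraries and the filter on low counts. 7 genes of mitochondrial ribosomal proteins under other symbols had a median log2 fold change of -0.10, with 1 positive and 6 negative. Among them Ict1, a peptide-releasing protein of the large subunit, had 60.8 and 53.7 CPM in wild type, against 47.9 and 44.3 CPM in KO, and Dap3, a GTP-binding protein of the small subunit, had 168 and 150 CPM against 142 and 123 CPM. The 22 genes of mitochondrial ribosome assembly and RNA modification had a median of 0.01, with 12 positive. The 14 translation factors had a median of 0.01, with 7 positive. Mtrf1, a release factor, had 4.83 and 5.74 CPM against 7.02 and 9.82 CPM (log2 fold change 0.67). Gfm2, a factor that takes part in recycling of the ribosome, had 27.3 and 28.1 CPM against 34.6 and 38.5 CPM (0.40).

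The 20 mitochondrial aminoacyl-tRNA synthetases, which charge tRNAs with amino acids, had a median log2 fold change of 0.03, with 11 positive. Lars2, the leucyl enzyme, had 52.0 and 60.2 CPM in wild type, against 85.5 and 84.3 CPM in KO, with no overlap. Its log2 fold change was 0.60 ± 0.12 (SE), with an adjusted p of 0.364 in edgeR, 0.0185 in DESeq2 and 0.0441 with no filter on low counts. Iars2, the isoleucyl enzyme, had 120 and 114 CPM against 100.2 and 67.4 CPM (-0.48). The adjusted p of Iars2 was 0.0253 without KO replicate 1, with a log2 fold change of -0.80. The 15 genes of mitochondrial DNA maintenance, transcription and RNA processing had a median of 0.03. The 9 nuclear regulators of mitochondrial genes had a median of 0.15, with 5 positive and 4 negative. Among them Nrf1 had 225 and 213 CPM in wild type, against 191 and 167 CPM in KO, and Yy1 had 195 and 177 CPM against 172 and 121 CPM. Myc had 67.7 and 73.6 CPM against 71.8 and 106 CPM (0.33). None of these 3 passed the test with all libraries, and without KO replicate 1 the adjusted p of Myc in edgeR was 0.0455, with a log2 fold change of 0.58.

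The proteins of the cytosolic ribosome and the respiratory chain served as the nearest comparison. Of the 81 cytosolic ribosomal protein genes, 72 passed the filter on low counts. Their median wild-type level was 24.9 CPM per kilobase, against 67.5 for the respiratory chain genes. Their median absolute log2 difference between the wild types was 0.29, against 0.13 in the respiratory chain genes. Whether reads lost to the mapping quality limit affected the cytosolic list was not tested. The 72 tested cytosolic ribosomal protein genes had a median log2 fold change of -0.15, with 18 positive and 54 negative, and the 84 nuclear-encoded respiratory chain genes one of -0.13, with 22 positive and 62 negative. In both lists 7 genes were lower and 0 higher at an unadjusted p under 0.05, and 0 passed the adjusted threshold. The median of -0.04 for the mitochondrial ribosomal protein genes lay between these and that of all tested genes. With the length trend removed, the medians were -0.05 and -0.04 for the cytosolic ribosome and the respiratory chain. No test compared the lists.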

How the data were processed

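The 4 libraries, 1 per mouse, hold RNA of total thymocytes from 2 wild-type and 2 hnRNP L KO mice. For each, the authors deposited raw read counts per RefSeq transcript (alignments of mapping quality 10 or more, per the file headers) and per exon-exon junction. They also deposited the ratio of reads to length, a signal value, and RPKM; both followed from the counts to within rounding, and no test used them. The build is mm9, per the submitters' processing notes; no source used here names the aligner or the use of strand. Mapped reads numbered 69061265 to 122619310 and junction reads 3302915 to 6146421 per library, per the file headers and tables.

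The transcript with most reads was kept per symbol. Genes were tested with edgeR 4.0.16 (R 4.3.3; robust quasi-likelihood fit, TMM, filterByExpr, Benjamini-Hochberg threshold 0.05), with DESeq2 1.42.0 and limma 3.58.1 as alternatives. Usage of junctions with 10 or more reads was tested with diffSpliceDGE where a gene had 2 or more of them, whose natural log coefficients were converted to log2. Exons needed 10 reads in every library and 5 reads each for inclusion and skipping. Alternatives changed the scaling, filters, tools and libraries. Each fit was tested on simulated data. Exons were numbered, and pseudogene windows searched, with GENCODE M21 (GRCm38), to which all 76 genes matched by RefSeq ID.

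The named genes are the 5 with the highest and lowest wild-type levels, the 6 of smallest p in each direction, the 4 with the widest gaps between the KOs in each direction, those failing the filter, those called by edgeR or DESeq2, the 5 junctions and exons of smallest p, the 5 putative junctions with most reads, and up to 3 per other list. Divergent partners and the shown sequences were chosen after their values were seen. The genes, lists and rules were chosen with earlier results of these data known. Nothing says whether the mice were littermates.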

Additional observations from a re-analysis of the deposited data

How the results depend on the processing

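No mitochondrial ribosomal protein gene, junction or exon passed the threshold under any alternative run, except Mrpl17 without KO replicate 1 and the Mrpl12 junction without wild-type replicate 2, so these counts ranged from 0 to 1 with each library left out. The count of all genes called was 1 in the main test, 113 with DESeq2, 62 with no filter on low counts, 3 without small RNA genes, and 0 with limma-voom, upper-quartile scaling, no robust moderation or summed transcript rows. It ranged from 2 to 433 with 1 library left out, the highest being without KO replicate 1. The median log2 fold change of the group was 0.0093 with upper-quartile scaling and ranged from -0.073 to 0.010 with 1 library left out. The count of all junctions called was 4, against 1 with limma-voom and 2 with known junctions only, and ranged from 3 to 12 with 1 library left out. The causes were not tested. The labels number mice 1 and 2 in both groups without saying that a number pairs them. Deviations of same-numbered libraries correlated at 0.26 across 13733 genes, and with the replicate block 116 genes and 10 junctions were called, none of them in the group. Of 609 alternative values for 51 results, 32 moved by more than the spread or, for counts, by more than 1.5 times. 7 passed a threshold that the main value missed, of Lars2 (2 values), Mrpl17, Iars2, Myc, Hnrnpl and the Mrpl12 junction. With nearly no direction called, a reversal could hardly have been seen. With 2 libraries per group and a median SE of 0.15 on the log2 scale, differences of the size seen in most of these genes were not detectable.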
